A study of Mus musculus with 18 samples.

Results

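The comparison set 2 cerebral cortex RNA-seq libraries labelled Mcph1KO against 2 wild-type (WT) libraries at the stage labelled A6w, 4 of the 18 libraries of a study of cortex development in a mouse model of microcephaly. The members were taken from the sample titles alone, though the comparison was chosen with earlier results of these data known. Both groups came from male C57BL/6J mice. They differed by the genotype label, wild type or Mcph1 knockout, and the labels name neither the knockout allele nor the exons it removes. No treatment is given for either group. The other 14 libraries were 2 of wild-type R1 embryonic stem cells and 12 of cortex of both genotypes at E17.5, P4 and A18w. The labels do not say what A6w and A18w stand for, and they do not say whether the libraries numbered 1 and 2 of a group came from separate animals. The p-values therefore measure the spread between libraries, which may be technical. The A6w libraries held 26593663 and 30745603 counts in WT and 30559950 and 25553986 counts in those labelled Mcph1KO, with 23014 to 23336 genes counted at least once in each.

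Mcph1 encodes microcephalin, a nuclear protein with BRCT domains that holds back condensin II, so that cells without it condense their chromosomes too early, and that takes part in the response to DNA damage. Its loss in humans causes primary microcephaly, a small brain that arises mainly from early depletion of dividing progenitors. Adult cortex holds few dividing cells, and its transcriptome is mostly that of mature neurons and glia. Immediate early genes, on which much of the account below turns, are genes that neurons switch on within minutes of synaptic activity without new protein synthesis. Calcium and cAMP signals reach them through CREB, which binds the palindrome TGACGTCA (a cAMP response element) or one side of it, and through the serum response factor at CArG boxes.

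Promoters of 4 immediate early genes are printed first because that class had the highest median difference of all gene lists in the comparison. Each run is the 250 bases before the RefSeq start site on GRCm38.p6, written 5′ to 3′ on the gene's own strand. Dusp1 lies at chr17:26508473-26508722 on the minus strand and Btg2 at chr1:134079156-134079405 on the minus strand, and in both the capitals mark TGACGTCA. Fos lies at chr12:85473640-85473889 on the plus strand and Nr4a1 at chr15:101266596-101266845 on the plus strand, and in both the capitals mark TGACG or its reverse complement CGTCA.
Dusp1: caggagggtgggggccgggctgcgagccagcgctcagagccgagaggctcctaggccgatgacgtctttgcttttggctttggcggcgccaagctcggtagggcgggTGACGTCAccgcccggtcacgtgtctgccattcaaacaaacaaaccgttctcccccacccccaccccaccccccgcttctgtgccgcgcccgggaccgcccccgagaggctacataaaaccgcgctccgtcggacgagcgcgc
Btg2: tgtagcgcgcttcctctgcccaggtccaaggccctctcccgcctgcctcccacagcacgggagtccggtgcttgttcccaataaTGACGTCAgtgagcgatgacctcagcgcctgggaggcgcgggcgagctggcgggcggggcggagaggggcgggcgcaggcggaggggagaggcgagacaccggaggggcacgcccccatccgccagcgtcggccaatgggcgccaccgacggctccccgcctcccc
Fos: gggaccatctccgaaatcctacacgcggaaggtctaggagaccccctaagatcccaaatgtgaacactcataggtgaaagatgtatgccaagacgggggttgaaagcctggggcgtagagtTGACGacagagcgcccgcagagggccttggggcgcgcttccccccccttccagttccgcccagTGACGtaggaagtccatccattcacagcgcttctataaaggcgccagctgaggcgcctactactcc
Nr4a1: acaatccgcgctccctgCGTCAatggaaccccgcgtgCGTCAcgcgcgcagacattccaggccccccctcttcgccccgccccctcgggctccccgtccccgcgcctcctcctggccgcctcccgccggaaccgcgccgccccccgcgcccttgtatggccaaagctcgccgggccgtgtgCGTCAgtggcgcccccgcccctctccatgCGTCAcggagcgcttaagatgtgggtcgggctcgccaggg
The palindrome began 143 bases before the start in Dusp1 and 166 bases before it in Btg2. Fos held its 2 matches 129 and 66 bases before the start, and Nr4a1 held 4, the nearest 40 bases before it. Of the 37 immediate early genes listed, 31 had a promoter in the RefSeq table. Egr1, Egr3, Ier2, Arc, Trib1 and Sik1 had none there, so their promoters were not searched for any of the motifs. TGACGTCA occurred in 6 of the 31 (19.4%), namely Dusp1, Btg2, Maff, Plk2, Arl4d and Ppp1r15a, against 2.76% of the 13215 tested genes with a promoter and 1.55% of all 32851 promoters of that length. TGACG or CGTCA on either strand, which includes every palindrome, occurred in 24 of the 31 (77.4%), against 27.7% and 17.8%. A CArG box occurred only in Egr2, 1 of the 31 (3.23%), against 1.44% and 1.47%. The listed promoters were richer in G and C (64.4% on average against 59.1% of tested genes) and the motifs hold CG, and the part of base composition was not tested. These matches describe letters within 250 bases and do not show binding.

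Mcph1 was not lower in the libraries that carry the knockout label. The gene (ENSMUSG00000039842.15, GRCm38 chr8:18595131-18803189) measured 9.66 and 9.02 CPM (counts scaled to library size with TMM factors) in WT replicates 1 and 2 and 16.2 and 16.6 in Mcph1KO replicates 1 and 2. Both libraries labelled Mcph1KO were above both WT libraries, by 1.76 times on average. The log2 difference was 0.81 ± 0.19 (standard error from the fit, as for all such values here), with an edgeR unadjusted p = 0.00094 and an adjusted p of 0.839. An exact two-sided permutation of the 4 libraries gave p = 0.333, the smallest that 2 against 2 allows. A total per gene does not resolve exons, so whether an intact transcript was present could not be read from it, and the groups are therefore called by their labels throughout.

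The edgeR quasi-likelihood test called 0 of 19199 genes (0%) at an adjusted p under 0.05, with the smallest adjusted p at 0.139. At an unadjusted p under 0.05 there were 763 genes (3.97%), of which 393 (2.05%) were higher and 370 (1.93%) lower in the libraries labelled Mcph1KO. DESeq2 called 24 genes (0.125%), 18 higher and 6 lower. Of those 24, 8 had 0 counts in at least 2 of the 4 libraries and 7 were counted in a single library. On simulated counts for this comparison DESeq2 called 25 unchanged genes and edgeR 5. Genes that passed in DESeq2 alone are given below with that limit. The libraries did not pair by label. Their log2 CPM correlated at 0.974 to 0.981 across genes, and WT replicate 2 and Mcph1KO replicate 2 were the most alike (0.981), above the pair of WT libraries (0.976) and the pair labelled Mcph1KO (0.975).

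**Figure D1:**
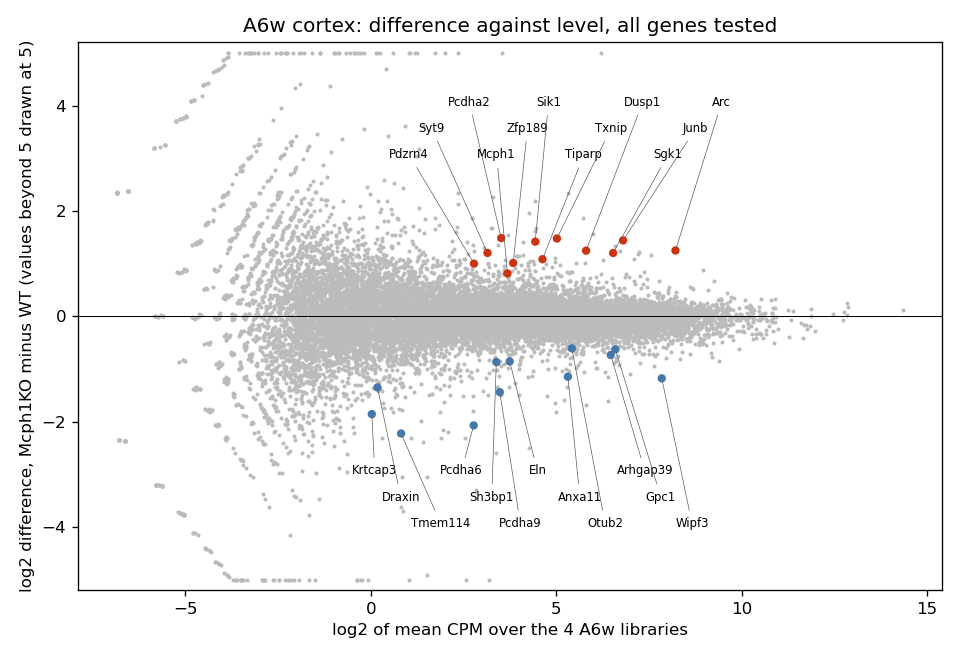
Log2 difference at A6w (libraries labelled Mcph1KO minus WT, vertical axis) against log2 of the mean CPM over the 4 libraries (horizontal axis), 1 grey point per gene tested, with differences beyond 5 drawn at 5. Red and blue points are the 12 named genes of smallest unadjusted p in each direction. They were picked by p among genes whose groups did not overlap, so their place outside the main cloud follows from that choice. The widest scatter lies at low counts.

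Libraries of the same group also differed from each other. Among the 11799 genes with a mean of at least 5 CPM, 260 (2.204%) differed over 2-fold between the 2 WT libraries and 219 (1.856%) between the 2 labelled Mcph1KO. The group means differed over 2-fold for 108 (0.9153%), a share not to be set against the other 2, since a mean of 2 libraries varies less than 1 library. Over all genes tested, 3208 (16.7%) were higher in both libraries labelled Mcph1KO than in both WT libraries and 2952 (15.4%) were lower in both, so 32.1% did not overlap. By order alone, 2 of the 6 ways to split 4 untied values 2 against 2 do not overlap, a share of 0.333. A log2 difference above 0 was found for 50.1% of genes. Differences of 2-fold or more were found for 4.17% of genes upward and 3.78% downward, most of them at low counts.

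Immediate early genes stood higher in the libraries labelled Mcph1KO. None of the 37 passed the edgeR test. Of these, 32 had a log2 difference above 0, with a median of 0.88 against 0.00 over all genes, and 24 were higher in both libraries than in both WT libraries (background 16.7%), with 1 lower in both (Amigo3). At an unadjusted p under 0.05, 21 were higher (background 2.05%) and none lower. The list was drawn up with earlier results of these data known, so its direction is a description.

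Of the 19 transcription factors on the list, 12 were higher in both libraries (background 16.7%), and the median difference was 0.96. Junb, a partner of Fos in the AP-1 factor (ENSMUSG00000052837.6, chr8:84974484-84978718), measured 48.3 and 71.9 CPM in WT against 179 and 147. This was a 2.71-fold difference in the means (log2 1.44 ± 0.29, edgeR adjusted p = 0.576, DESeq2 adjusted p = 0.00311). Fos measured 10.4 and 34.9 CPM in WT against 86.1 and 78.3 (1.86 ± 0.53). Both genes were higher in each library labelled Mcph1KO than in either WT library, with WT replicate 1 the lowest. Egr2, a zinc finger factor, measured 2.15 and 13.4 CPM against 24.8 and 36.3 (1.97 ± 0.58). Npas4, a factor that neurons induce specifically on depolarisation, measured 7.96 and 13 CPM against 43.7 and 23.7 (1.68 ± 0.56). Nr4a1, an orphan nuclear receptor, measured 62.4 and 112 CPM against 164 and 208 (1.09 ± 0.32). For these too the groups did not overlap. Egr4, Maff, Ier2, Klf2, Nr4a2, Nr4a3 and Atf3 were likewise higher in both, by 0.79 to 1.58 in log2. Egr1, the factor most used as a marker of neuronal activity, measured 208 and 487 CPM in WT against 462 and 816, so its groups overlapped. Fosb (8.24 and 53.1 against 45.2 and 64.1 CPM) and Fosl2 (42.5 and 91.2 against 60.1 and 116) overlapped as well. Without WT replicate 1 their differences were 0.04 and -0.05. Egr3 (152 and 519 against 178 and 395 CPM) and Ier5 had differences below 0.

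Among the 18 effector genes, which encode synaptic proteins, kinases and phosphatases, 12 were higher in both libraries (background 16.7%), with a median of 0.61. Arc, which drives internalisation of AMPA receptors (ENSMUSG00000022602.14, chr15:74669083-74672570), measured 156 and 196 CPM in WT against 336 and 500 (1.25 ± 0.26, edgeR adjusted p = 0.576, DESeq2 adjusted p = 0.00486). Dusp1, a phosphatase that switches off MAP kinases, measured 27.1 and 39.2 CPM against 82.1 and 75.1 (1.24 ± 0.26). Sik1, a CREB-induced kinase, measured 7.75 and 15.8 CPM against 28.8 and 34.2 (1.42 ± 0.30). Arc, Dusp1 and Sik1 each passed in DESeq2 and not in edgeR. Ccn1, a secreted matrix protein, showed the widest gap, with 2.92 and 3.78 CPM against 17 and 15.5, a 4.83-fold difference (2.27 ± 0.64). Btg2, an antiproliferative regulator, measured 12.4 and 11.9 CPM against 42.5 and 22.9 (1.43 ± 0.47). Gadd45g, Arl4d and Trib1 were also higher in both, by 0.79 to 1.14. Not every effector followed. Homer1, a postsynaptic scaffold whose short form is induced by activity, measured 218 and 687 CPM in WT against 221 and 495, and Rheb and Ppp1r15a differed by 0.02 and -0.05.

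**Figure D2:**
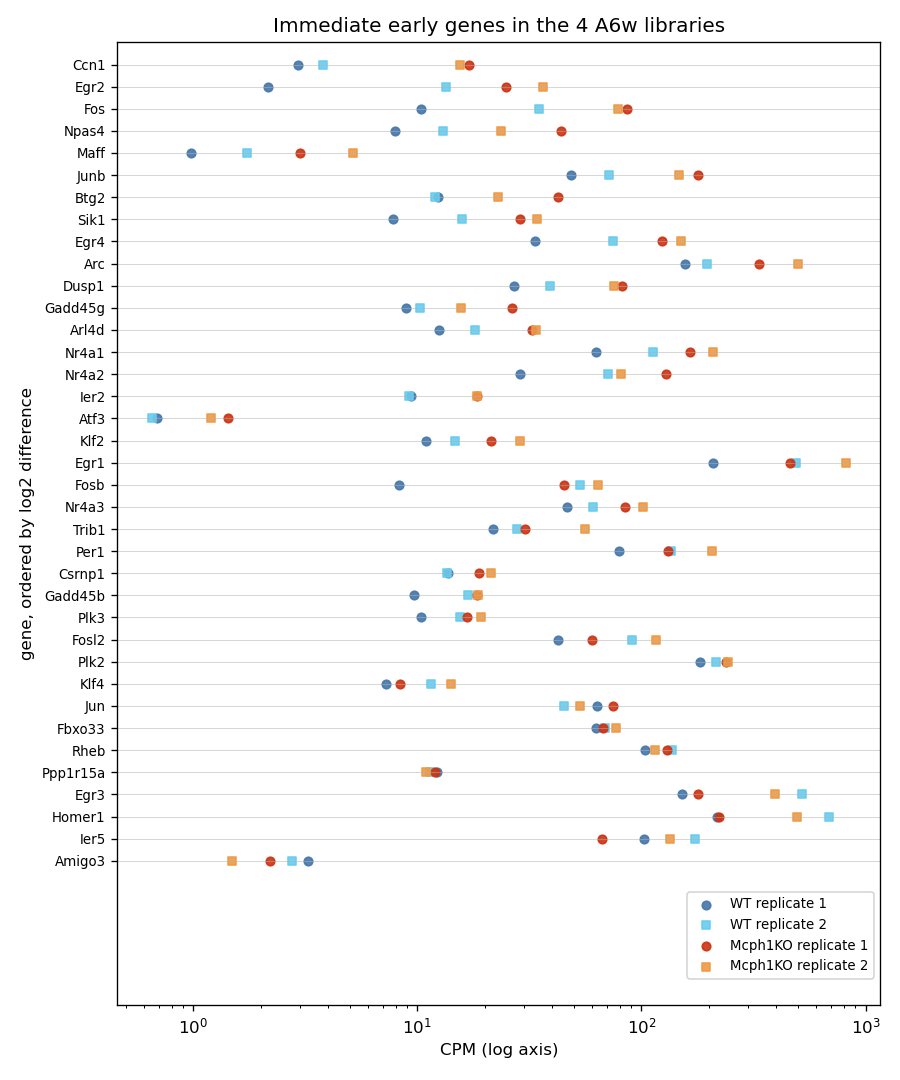
CPM (log axis) of the 37 immediate early genes in each of the 4 A6w libraries, 1 row per gene, ordered by log2 difference with the largest at the top. Blue symbols are WT and red and orange symbols Mcph1KO. In the upper rows, such as Ccn1 and Junb, both Mcph1KO symbols lie to the right of both WT symbols, and WT replicate 1 is often farthest left.

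WT replicate 1 was the lowest library for much of the list. The mean log2 CPM of the 19 factors was 4.20 in WT replicate 1, 5.16 in WT replicate 2 and 5.56 and 5.83 in the libraries labelled Mcph1KO. For the effectors the same values were 4.53, 4.95, 5.38 and 5.46. In these means both WT libraries were below both others, and the WT libraries differed from each other by more than the other pair did. The summed level of the 37 genes overlapped, at 1790 and 3484 CPM in WT against 3227 and 4434. In that sum, which abundant genes weigh on most, WT replicate 2 was above Mcph1KO replicate 1. Without WT replicate 1 the median of the 37 genes was 0.61, with 30 above 0 and 9 rather than 21 higher at an unadjusted p under 0.05. Without WT replicate 2 it was 1.10, and without Mcph1KO replicate 1 or 2 it was 0.92 or 0.66. WT replicate 1 also held more hippocampal, striatal and myelin RNA and less meningeal RNA, as given below, and the part of these in the immediate early values was not tested.

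Genes that follow the immediate early wave did not stand higher as a group. Of 18 delayed activity genes, 7 were above 0 and the median was -0.18, which became 0.40 without WT replicate 2. Tiparp, a mono-ADP-ribosyltransferase, was the only member higher in both libraries, with 14.1 and 17.6 CPM in WT against 27.7 and 39.6 (1.08 ± 0.24, DESeq2 adjusted p = 0.0208). Bdnf, the neurotrophin that promotes synaptic growth, measured 31.1 and 80.8 CPM in WT against 43 and 49.1. Nptx2 (46.1 and 182 against 65.7 and 89.2 CPM), Vgf (255 and 638 against 331 and 356) and Scg2 (139 and 267 against 135 and 183) likewise had WT replicate 2 as the highest library. Inhba, an activin subunit, measured 10.6 and 36.1 CPM against 4.97 and 11.6. Of 11 feedback regulators of MAP kinase signalling, 4 were above 0 (median -0.10, but 0.23 without WT replicate 2). Higher in both were 2 of the 11 (18.2%), near the background of 16.7%. These were Errfi1 (32 and 32 CPM against 48.3 and 53) and Dusp5 (17.3 and 17.4 against 22.9 and 42.1).

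Txnip and Sgk1 ranked 3 and 4 by p among all genes tested, after Pcdha2 and Adamts7, a gene with at most 13 counts in any A6w library. Sgk1, a kinase induced by glucocorticoids and by serum (ENSMUSG00000019970.15, chr10:21882184-21999903), measured 53.7 and 58.6 CPM in WT against 115 and 144. Its log2 difference was 1.20 ± 0.20, a 2.30-fold difference in the means (edgeR adjusted p = 0.264, DESeq2 adjusted p = 0.000179). Txnip, which binds thioredoxin and limits glucose uptake (ENSMUSG00000038393.14, chr3:96557957-96561883), measured 14 and 20.3 CPM in WT against 56.9 and 38.5 (1.48 ± 0.25, edgeR adjusted p = 0.264, DESeq2 adjusted p = 8.01e-05). For both genes each library labelled Mcph1KO was well above the higher WT library. Among 16 genes that glucocorticoids induce, 8 were above 0 and the median was 0.03, with a range of -0.03 to 0.32 when single libraries were left out. Sgk1, Nfkbia (15.2 and 20.3 CPM against 37 and 33.8), Ddit4 (41.6 and 30.7 against 77.2 and 69.3), Errfi1, Tsc22d3 (105 and 88 against 118 and 138) and Pdk4 (11.4 and 8 against 13.6 and 18.5) were higher in both libraries, 6 of the 16 (background 16.7%). Fkbp5, a receptor chaperone and a standard reporter of glucocorticoid signalling, was not, at 69.9 and 45.4 CPM in WT against 36.1 and 49.6. Zbtb16 (47.4 and 56.4 against 25.6 and 44.3 CPM) and Plin4 (10.8 and 3.24 against 1.08 and 1.96) were lower in both. Of 19 circadian clock genes 9 were above 0 and the median was -0.02. Per1, which activity also induces, measured 79 and 135 CPM against 132 and 207, whereas Dbp, a direct output of the clock, measured 106 and 82.4 against 108 and 87.5.

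Protocadherin alpha genes included Pcdha2, which had the smallest p of the comparison, and Pcdha6 and Pcdha9, which ranked 5 and 6 among all genes tested. These genes encode cell surface proteins that give neurons an individual identity, and each variable exon has its own promoter and is spliced to shared last exons. Pcdha2 (ENSMUSG00000104148.5, chr18:36939205-37187657) measured 5.36 and 6.69 CPM in WT against 17.3 and 16.5 (1.48 ± 0.21, edgeR adjusted p = 0.139, DESeq2 adjusted p = 5.88e-06). Pcdha6 measured 10.8 and 11.3 CPM in WT against 2.27 and 2.99, and was thus 4.20-fold lower (-2.07 ± 0.37, edgeR adjusted p = 0.37). Pcdha9 measured 16.2 and 16.4 CPM against 4.48 and 7.55 (-1.44 ± 0.28, edgeR adjusted p = 0.565). Pcdha3 (8.77 and 11.1 against 19.5 and 16.5 CPM) and Pcdha1 (3.49 and 6.11 against 7.34 and 16.3) were higher in both libraries, the latter with wide scatter. The other 8 of the 13 members tested overlapped, among them Pcdhac2 at 90.7 and 116 CPM against 100 and 106. Of the 13, 3 were thus higher in both libraries (23.1%, background 16.7%) and 2 lower in both (15.4%, background 15.4%), with a median of -0.01. As counts, these lay near the shares over all genes tested. Because the genes share their last exons, reads could have been split between them when counts were estimated. The test against the other stages did not set these genes apart at A6w. The Pcdha2 difference exceeded the mean of the other stages by 0.21 ± 0.23 (unadjusted p = 0.377) and that of Pcdha6 differed from it by -0.47 ± 0.42 (unadjusted p = 0.281).

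Outside these groups, the named genes of smallest p were scattered over functions. Anxa11, an annexin that tethers RNA granules to lysosomes for axonal transport (ENSMUSG00000021866.15, chr14:25842156-25886804), measured 57.3 and 52.4 CPM in WT against 23.6 and 25.9. It was 2.22-fold lower (-1.15 ± 0.22, edgeR adjusted p = 0.565, DESeq2 adjusted p = 0.0049), and its libraries agreed closely within each group. Pdzrn4, a PDZ-domain protein, measured 3.98 and 5.2 CPM against 9.83 and 8.54 (1.00 ± 0.21). Syt9, a calcium sensor for vesicle release, measured 4.63 and 6.11 CPM against 14.7 and 10.1 (1.20 ± 0.27). Both passed in DESeq2 (adjusted p = 0.0215 and 0.0334) and not in edgeR. Zfp189, a zinc finger protein, measured 11.3 and 7.71 CPM against 18.2 and 20.1. Lower in both libraries were Gpc1, a heparan sulfate proteoglycan (120 and 114 CPM in WT against 72.7 and 79), Arhgap39, a GTPase-activating protein (124 and 97.5 against 62.4 and 70.6), and Otub2, a deubiquitinase (51.4 and 52.1 against 31.7 and 36.2). Sh3bp1 (13.4 and 13.6 against 6.47 and 8.32 CPM) and Eln, which encodes elastin (13.6 and 21 against 9.9 and 9.18), were lower too. Draxin, Krtcap3 and Tmem114 were lower at levels that stayed under 4 CPM in each library. Wipf3, an actin regulator, measured 451 and 187 CPM in WT against 136 and 146, and its difference of -1.18 shrank to -0.41 without WT replicate 1.

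Markers of excitatory neurons were abundant in all 4 libraries. Slc17a7, a vesicular glutamate transporter of cortical and hippocampal neurons, measured 1715 and 2016 CPM in WT against 1868 and 1790, and Tbr1, a factor of deep cortical layers, measured 141 and 191 against 140 and 205. Of 12 excitatory markers, 2 were above 0 and 4 were lower in both libraries (background 15.4%), none of them at an edgeR unadjusted p under 0.05. Their median was -0.23, or -0.07 without Mcph1KO replicate 1. Nrgn, a postsynaptic calmodulin-binding protein, measured 2324 and 2049 CPM in WT against 1330 and 1733 (-0.51 ± 0.44). In bulk tissue, fewer cells of a type and less RNA per cell cannot be told apart. Deep layer markers had a median of 0.21, with 13 of 18 above 0 and 6 higher in both libraries (background 16.7%), and without Mcph1KO replicate 2 the median was 0.00. Ntsr1, a receptor of layer 6 corticothalamic neurons, measured 5.44 and 11.5 CPM against 14.8 and 16.5. Rprm (35 and 55.5 against 82.5 and 67.8 CPM) and Ccn2 (18.5 and 37.4 against 54.6 and 46.1), which also mark the deepest layers, did not overlap either. Upper layer markers had a median of -0.17 (-0.36 without Mcph1KO replicate 2), with 5 of 16 above 0 and 6 lower in both (background 15.4%). Mdga1, an adhesion protein of superficial layers, measured 50.8 and 52.4 CPM against 31.2 and 20.3, and Pou3f3 measured 179 and 175 against 93.2 and 155. Cux2, the usual marker of those layers, overlapped at 92.3 and 151 CPM against 91 and 126. Interneuron markers were level (median -0.04, 12 of 25 above 0). Pvalb, of the fast-spiking class, measured 46.3 and 48.1 CPM against 22.9 and 32.9, whereas Sst, of another class, measured 173 and 208 against 197 and 168.

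Of 30 potassium channel genes, 9 were above 0, none was higher in both libraries and 10 were lower in both (background 15.4%), with a median of -0.18. Kcnj10, the glial channel that clears potassium, measured 263 and 178 CPM in WT against 135 and 146 (-0.65 ± 0.22). Of 30 synaptic genes, 9 were above 0 and 7 were lower in both (background 15.4%), with a median of -0.08. Shank3, a postsynaptic scaffold, measured 413 and 414 CPM in WT against 180 and 293, so that it was 1.75-fold lower (-0.80 ± 0.27, edgeR unadjusted p = 0.0115). Shank2, of the same family, did not overlap either (254 and 371 against 211 and 243 CPM). For Shank3 the lower of the 2 libraries labelled Mcph1KO was replicate 1, and without it the difference was -0.50. With single libraries left out, the median of the channel list ran from -0.40 to -0.05 and that of the synaptic list from -0.24 to 0.02. Vesicle proteins were level, with Snap25, Vamp2, Syp and Syn1 between -0.07 and 0.05. Receptor subunits for glutamate and GABA had 18 of 32 above 0, with 7 higher and 7 lower in both libraries (background 16.7% and 15.4%) and a median of 0.02. Grin2a, an adult NMDA receptor subunit, measured 345 and 327 CPM against 158 and 264, and Grin3a, a subunit that lowers calcium entry, measured 32.8 and 48.2 against 67 and 55.4.

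Markers of neighbouring brain regions set WT replicate 1 apart from the other 3 libraries. Dsp, a desmosome gene that marks granule cells of the dentate gyrus, measured 35.6 CPM in WT replicate 1, against 0.291 in WT replicate 2 and 0.105 and 0.341 in those labelled Mcph1KO. Prox1, the dentate transcription factor, measured 65.9 CPM there against 12.4 to 15.8 in the other 3, and Fibcd1, of hippocampal area CA1, measured 84.2 against 10.2 to 20.1. Of 25 hippocampal markers, 9 were above 0, with a median of -0.46, which turned to 0.30 with 17 above 0 once WT replicate 1 was left out. Their summed level was 1667 and 1160 CPM in WT and 1495 and 1117 in the libraries labelled Mcph1KO.

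Striatal markers were lower in both libraries labelled Mcph1KO for 12 of 23 genes (background 15.4%), with 4 above 0 and a median of -0.76. Adora2a, the adenosine receptor of striatal indirect pathway neurons, measured 14.4 and 4.98 CPM in WT against 1.71 and 2.22 (-2.30 ± 0.80). Drd2, the dopamine receptor of the same neurons, measured 9.99 and 2.73 CPM against 1.54 and 1.28, and Scn4b, a sodium channel subunit, measured 189 and 66.1 against 17.3 and 66.2. Drd1, of the direct pathway, did not share that pattern, at 11.3 and 10 CPM against 14.8 and 11.3. The summed level was 1213 and 918 CPM in WT against 652 and 777. Without WT replicate 1 the median was -0.37 and 7 members were above 0. Isl1 was at 0 in both libraries labelled Mcph1KO and under 0.05 CPM in WT. The part of dissection in these values was not tested.

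Myelin genes were below 0 for 21 of 22 members, with a median of -0.28, yet only 2 were lower in both libraries, Myrf and Sox10 (background 15.4%). Mbp, the main myelin protein of its name, measured 3617 and 1965 CPM in WT against 2263 and 1976. WT replicate 1 was thus high and the other 3 lay together. Without it the median was 0.12 and 15 members were above 0. Meningeal fibroblast genes ran the other way, with 18 of 19 above 0 and a median of 0.66 that became 0.04, with 10 above 0, without WT replicate 1. Their summed level was 406 and 1202 CPM in WT against 1700 and 924. Dcn, a matrix proteoglycan, measured 6.62 and 12.1 CPM against 34.1 and 15.5, and Crabp2 was at 0 in WT replicate 1. Globin and other red cell genes had 10 of 10 above 0 (median 0.34, with 0.09 and 0.80 without WT replicate 1 and 2). Hbb-bs measured 84.3 CPM in WT replicate 1 against 183 in WT replicate 2 and 216 and 217 in the others.

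**Figure D3:**
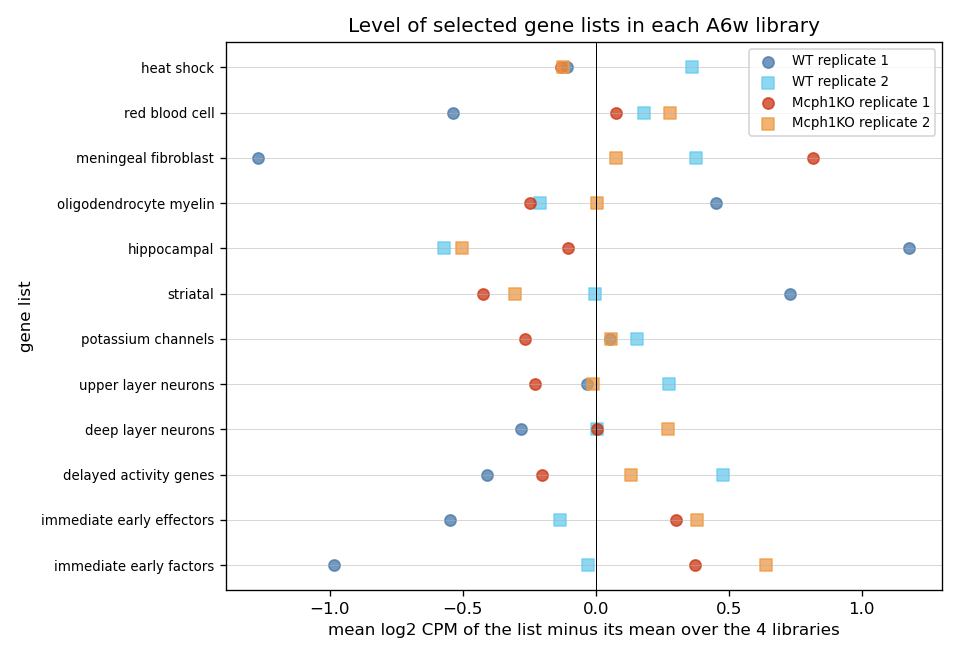
Mean log2 CPM of 12 gene lists in each A6w library, as the difference from the list's mean over the 4 libraries (horizontal axis). Blue symbols are WT and red and orange symbols Mcph1KO. WT replicate 1 lies far right for hippocampal, striatal and myelin genes and far left for meningeal, red blood cell and immediate early genes, and both WT symbols lie left of both others for the immediate early lists.

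Other regions and cell types showed little. Thalamic and hypothalamic markers had 10 of 20 above 0 (median 0.03), olfactory bulb markers 6 of 10 (0.24, but -0.03 without WT replicate 2) and cerebellar markers 6 of 10 (0.13, but -0.24 without WT replicate 1). Choroid plexus markers had 9 of 16 above 0 (0.40, but 0.08 without Mcph1KO replicate 2), with Ttr, the transthyretin that dominates that tissue, at 2.88 and 1.78 CPM in WT against 2.59 and 12.6, and Cldn2, Slc4a5 and Kcne2 at 0 in WT replicate 1. Ependymal genes had 9 of 10 above 0 (0.77, but -0.29 without Mcph1KO replicate 1), all of them at low levels with a summed 9.35 to 20.1 CPM. Astrocyte markers had 6 of 21 above 0 (-0.16, and 0.00 without WT replicate 1), microglial markers 16 of 21 (0.08, with -0.21 and 0.30 without Mcph1KO replicate 1 and 2), oligodendrocyte precursor markers 6 of 14 (-0.04) and pericyte and smooth muscle markers 8 of 16 (0.00, with -0.25 and 0.30 without the same libraries). Endothelial markers had 9 of 20 above 0 (-0.07). Kdr, the main receptor for vascular endothelial growth factor, measured 23.6 and 28.7 CPM in WT and was lower in both libraries labelled Mcph1KO (-0.68 ± 0.21), and Cldn5, of the tight junctions, measured 47 and 43.9 against 38.4 and 19.

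Gene lists for the processes in which microcephalin takes part had medians between -0.12 and 0.23. Of 26 DNA damage response genes, 18 were above 0 and the median was 0.16, with 9 higher in both libraries (background 16.7%). The clearest, Fanca (0.609 and 0.618 CPM in WT against 1.36 and 1.07) and Chek1 (0.649 and 0.327 against 0.874 and 1.32), sat near the lower end of what could be measured. Nbn, a sensor of double strand breaks, measured 13.4 and 15.4 CPM in WT and differed by 0.33, without overlap. Condensin subunits had 6 of 8 above 0 (median 0.23, with a range of 0.07 to 0.43 when single libraries were left out). Ncapg2, of condensin II, measured 5.64 and 4.69 CPM against 5.74 and 7.26, and Ncaph2, also of condensin II, measured 95 and 102 against 99.1 and 98.6. Primary microcephaly genes had 14 of 26 above 0 (0.01), and mitosis genes 18 of 26 (0.18, but -0.41 without Mcph1KO replicate 2). Plk1, the mitotic kinase, measured 1.54 and 0.691 CPM in WT against 0.35 and 1.02. Histone genes had 5 of 22 above 0 (-0.12, with a range of -0.26 to -0.01). Targets of p53 had 12 of 18 above 0 (0.09), of which Btg2 is also an immediate early gene and Trp53inp1 measured 19.4 and 11.4 CPM against 21.5 and 34.2. None of these lists held a gene that passed in edgeR.

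For the lists that follow, the share of all genes tested without overlap was 16.7% upward and 15.4% downward. Heat shock genes had 3 of 14 above 0 (median -0.21, but 0.06 without WT replicate 2), with 4 lower in both libraries. Hspb1, a small chaperone, measured 9.34 and 15.4 CPM in WT against 6.19 and 5.59 (-1.07 ± 0.40), and Hspa1b measured 14.2 and 19.5 against 11.3 and 8.11. Interferon response genes had 10 of 20 above 0 (0.02, with -0.31 and 0.46 without WT replicate 1 and 2). H2-K1, a class I histocompatibility gene, measured 17.9 and 22.8 CPM against 34.4 and 43.9 (0.94 ± 0.33). Adult neurogenesis genes had 8 of 15 above 0 (0.02), with 4 higher and 4 lower in both. Dcx, a microtubule protein of young neurons, measured 23.9 and 22.4 CPM against 32.7 and 36.1 (0.57 ± 0.16), while Nes, of progenitors, measured 13.2 and 19.1 against 8.22 and 11.4. Imprinted genes had 21 of 29 above 0 (0.17), with 8 higher in both. Grb10, a growth factor receptor adaptor, measured 31.9 and 31 CPM against 49.4 and 50 (0.66 ± 0.21), and Impact, a translation regulator, measured 186 and 246 against 310 and 301. Without WT replicate 1 the imprinted median was 0.00, and without WT replicate 2 it was 0.37. Cytosolic ribosomal protein genes had 38 of 45 above 0, with a median of 0.13 and 9 higher in both. Their mean log2 CPM was 6.95 and 7.08 in WT against 7.32 and 6.91, so replicate 1 labelled Mcph1KO was the high one, and without it the median was -0.12. Nuclear oxidative phosphorylation genes had 15 of 30 above 0 (0.00) and mitochondrially encoded ones 8 of 13 (0.04).

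**Figure D4:**
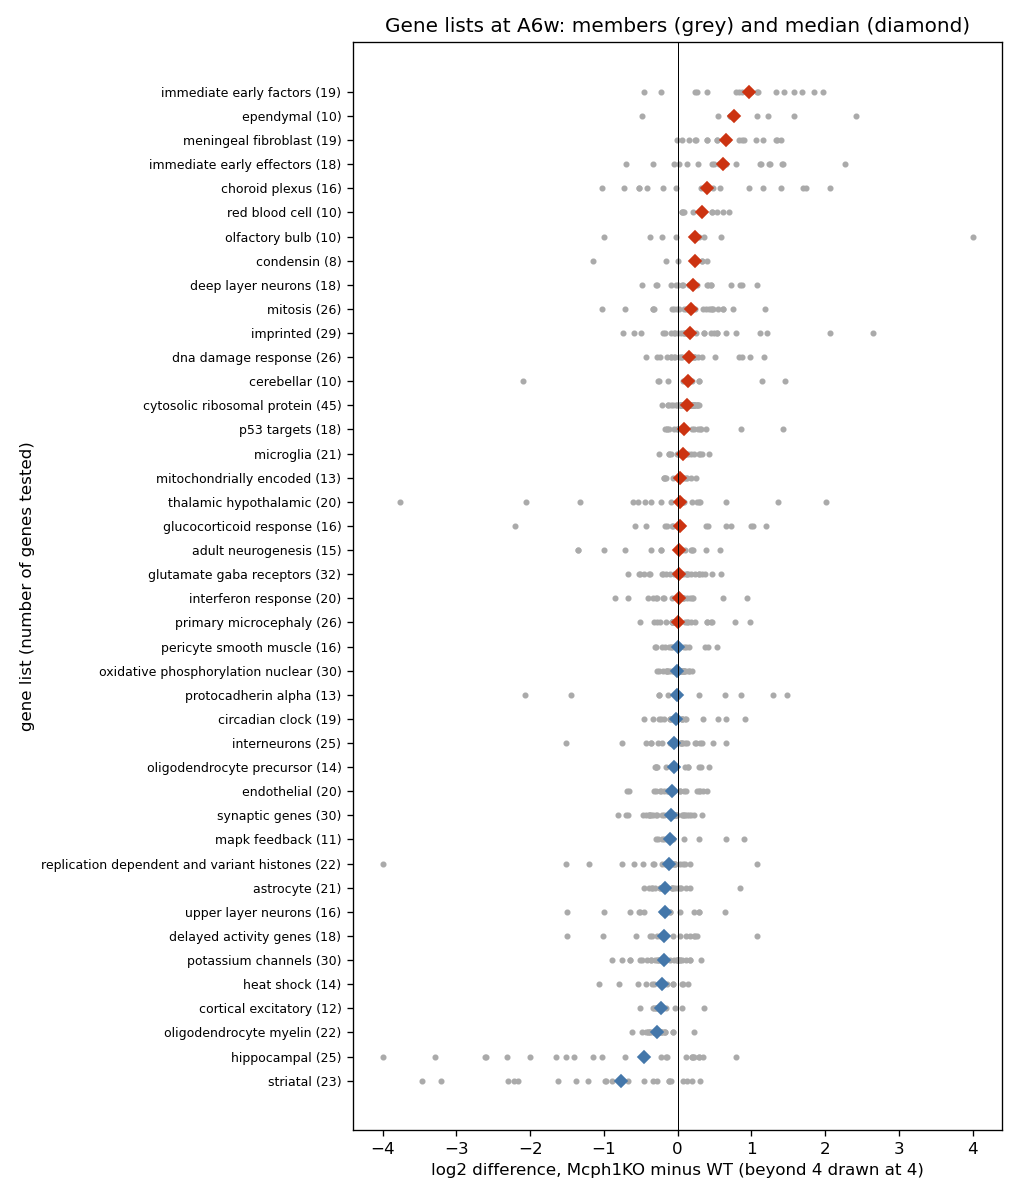
Log2 difference at A6w (horizontal axis, beyond 4 drawn at 4) of the tested members of 42 gene lists, with the number tested in brackets. Grey points are genes and diamonds are medians, red above and blue below 0. Immediate early factors have the highest median (0.96) and striatal markers the lowest (-0.76).

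Some genes were high in a single library and low or at 0 in the other 3. With at least 100 counts in 1 library and over 10 times the next highest, 2 genes belonged to WT replicate 1, 5 to WT replicate 2, 7 to Mcph1KO replicate 1 and 7 to Mcph1KO replicate 2. Those of WT replicate 1 were Dsp and Lct, both hippocampal markers. Most of the others were processed pseudogenes or gene models. Gm15459 held 8439 counts in Mcph1KO replicate 1 and at most 16 in the other 3, and Rpl34-ps1 held 1295 against at most 27. Gm49450 held 194 counts in Mcph1KO replicate 2 and 0 elsewhere, and Gm5641 held 223 in WT replicate 2 and 0 elsewhere, yet DESeq2 called both (adjusted p = 0.000179 and 0.000199). Such copies share sequence with their parent genes, so their estimated counts are uncertain.

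The same contrast at the other stages gave other values for the immediate early genes. The median difference of the 37 immediate early genes was -0.09 at E17.5, 0.14 at P4 and -0.10 at A18w. The test that set the A6w difference against the mean of the other 3 stages called 0 of 19199 genes (0%) in edgeR, and 14 in DESeq2. At an unadjusted p under 0.05 there were 701 (3.65%), of which 346 (1.8%) lay above and 355 (1.85%) below the other stages. Sgk1 came nearest in edgeR. Its difference was -0.25 at E17.5, -0.05 at P4 and -0.79 at A18w, and the A6w difference exceeded their mean by 1.56 ± 0.23 (unadjusted p = 1.65e-05, adjusted p = 0.169). Txnip differed by 0.04, -0.05 and -0.28 at those stages (A6w above their mean by 1.57 ± 0.28, edgeR adjusted p = 0.554), and Dusp1 by -0.04, -0.43 and -0.06 (1.42 ± 0.30). Anxa11 differed by 0.19, 0.01 and -0.15 (A6w below their mean, -1.17 ± 0.26). Draxin and Tmem114 were the other 2 genes named by that test, with -1.41 and -3.12, both at low counts.

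Several of these genes were lower in the A6w WT libraries than in cortex of either genotype at A18w. Junb measured 144 and 109 CPM in A18w WT and 181 and 105 in A18w Mcph1KO, next to 179 and 147 in A6w Mcph1KO and 48.3 and 71.9 in A6w WT. Fos measured 55.9 and 72.3 CPM in A18w WT and 63.8 and 55.8 in A18w Mcph1KO, and Arc measured 521 and 328 in the former and 317 and 317 in the latter. For Junb, Fos and Arc the 2 A6w WT libraries were thus lower than each of the A18w libraries. These genes were picked from those higher in A6w Mcph1KO. How many of the 37 immediate early genes shared this was not counted. Sgk1 was 263 and 188 CPM in A18w WT and 121 and 141 in A18w Mcph1KO, so there the WT libraries were the higher ones. Txnip measured 34.5 and 31.1 CPM in A18w WT and 28.5 and 25.5 in A18w Mcph1KO, all above the A6w WT libraries and below those of A6w Mcph1KO. These levels across stages were set side by side and not tested.

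**Figure D5:**
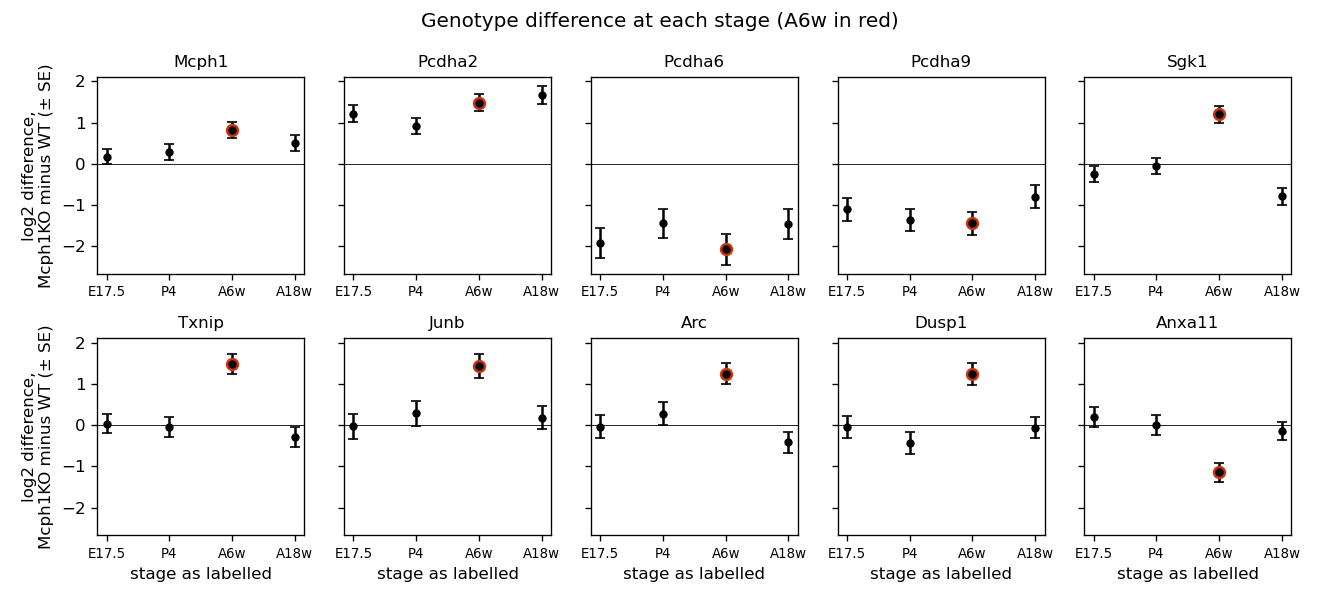
Log2 difference (libraries labelled Mcph1KO minus WT, vertical axis) at each of the 4 stages for 10 genes, with bars of ± 1 standard error from the edgeR fit and A6w ringed in red. Pcdha2, Pcdha6 and Pcdha9 keep the same sign at all 4 stages, whereas Sgk1, Txnip, Junb, Arc, Dusp1 and Anxa11 lie away from 0 at A6w and nearer to it or on its other side at the other stages.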

How the data were processed

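RNA-seq of 18 mouse libraries was deposited as estimated counts per gene. The authors made these estimated counts with Salmon 1.4.0 after Trimmomatic 0.39 and FastQC on GRCm38.p6, per the submitters' processing notes. They are whole numbers for 54281 genes, of which 54107 matched a GENCODE M21 symbol, and totals ran from 23531045 to 32041849 per library. Reads shared by similar genes had been split by the estimate, and strand use and annotation release are not given in the sources used here.

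The 16 cortex libraries were fitted together in edgeR 4.0.16 (R 4.3.3) with filterByExpr (minimum count 10, total 15), TMM factors, 1 mean per group and quasi-likelihood tests (19199 genes, 8 residual degrees of freedom). P-values were adjusted by Benjamini-Hochberg over all genes tested, with a call under 0.05. DESeq2 1.42.0 and other scalings, filters, library sets and a replicate block were the alternatives. Simulated counts took their spread from the fit of the 16 cortex libraries, with 100 genes changed 2-fold and 100 changed 4-fold. The changed genes had a mean of at least 1 CPM at A6w, so recovery at lower levels was not measured. The rates also depend on the number of genes changed. On these data for the A6w comparison (18766 genes), edgeR recovered 31% of 2-fold and 76% of 4-fold changes and called 5 unchanged genes. DESeq2 recovered 51% and 87% and called 25 unchanged genes.

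Named genes were Mcph1, the 12 of smallest p in each direction whose groups did not overlap (at least 1 CPM, no model names), up to 8 DESeq2 calls, up to 3 per direction against the other stages, all immediate early genes and leading members of the other lists. Further members are named from the lists after their values were seen. Comparison, rule and lists were chosen with earlier results of these data known.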

Additional observations from a re-analysis of the deposited data

Results flagged for a closer look

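The 42 gene lists were each compared between A6w and the 3 other stages, in mean log2 CPM. For 5 of them, both libraries labelled Mcph1KO lay on one side of both WT libraries at A6w and on the opposite side at another stage. How many would do so by the order of the libraries alone was not tested. The difference between the stages was not tested, and the part of WT replicate 1, which stood apart at A6w, was not tested either. Immediate early factors were higher by 1.01 at A6w and lower by -0.132 at A18w (A6w levels 4.20 in WT replicate 1, 5.16 in WT replicate 2). Heat shock genes differed by -0.255 at A6w and 0.215 at E17.5. Targets of p53 differed by 0.201 at A6w and -0.142 at A18w. Striatal markers differed by -0.728 at A6w, with WT replicate 1 highest (3.88, against 3.14), and by 0.314 at P4. Imprinted genes differed by 0.281 at A6w and -0.459 at P4.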

How the results depend on the processing

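With 2 libraries a side, a 2-fold change in a single gene would often be missed. Against 0 genes called at A6w, DESeq2 called 24, edgeR without a filter on low counts 262 of 33930 tested (60 of them with 0 counts in at least 2 of the 4 libraries), and edgeR with a replicate block 4 (Gm5641, Rpl34-ps1, Morf4l1-ps1 and Pcdha2, each at an edgeR adjusted p of 0.0234). Leaving out single libraries gave 0 to 2 genes: 2 without WT replicate 1 (Gm37206 and Tmem254c) and 2 without Mcph1KO replicate 2 (Gm15459 and Gm9008). Other size factors, library totals, only the 4 A6w libraries and all 18 libraries gave 0. Genes at an unadjusted p under 0.05 numbered 763, 1382 without the filter, 1280 with the block and 483 without Mcph1KO replicate 1. Against the other stages, where 0 were called, DESeq2 called 14, no filter 204, the block 1, and leaving out single libraries 0 to 1. The cause was not tested. The block was tried although the numbers do not pair the A6w libraries: same-numbered libraries deviated from their group means with a correlation of 0.0829 at A6w, against 0.209 to 0.478 at the other stages. With a floor of 1 rather than 5 CPM, 638 genes differed over 2-fold between the WT libraries and 642 between those labelled Mcph1KO, of more genes (14887). The Mcph1 difference stayed between 0.76 and 0.86 under every alternative run. The median of the immediate early genes was 0.61 to 1.10 with single libraries left out. Counts of list members with single libraries left out were added after seeing the data. Scaled by library totals, the medians of protocadherin alpha, pericyte and nuclear oxidative phosphorylation genes, all within 0.02 of 0, turned to 0.02, 0.03 and 0.03.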
